A study of Mus musculus with 2 samples.

Results

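The VEGF and angiopoietin axis was read in healthy mouse liver as 10 genes out of the 22508 in the table. They are the ligand genes Vegfa, Vegfc and Angpt2, the VEGF receptor genes Kdr, Flt1 and Flt4, the co-receptor genes Nrp1 and Nrp2, and the angiopoietin receptor genes Tek and Tie1. The members were taken by name, and all 10 are rows of the table. The cells came from livers of wild-type C57BL/6 mice aged 8 weeks with no further treatment, in 2 samples of 1 group, WT replicate 1 (library 1) and WT replicate 2 (library 2). The livers were taken apart with enzymes and cleaned on a Percoll gradient before droplet-based 3' RNA sequencing, so only cells that came through that gradient could be read. The labels do not say whether the libraries came from separate animals.

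VEGF-A is the main growth and survival factor of blood vessel endothelium and signals through KDR, while FLT1 binds it tightly and signals weakly. VEGF-C is the lymphatic growth factor, which signals through FLT4 and, once cleaved, also through KDR, and the neuropilins NRP1 and NRP2 act as co-receptors for these ligands and as receptors for class 3 semaphorins. Angiopoietins bind TEK, which keeps vessels quiet when angiopoietin-1 activates it, angiopoietin-2 can oppose this, and TIE1 is a partner of TEK with no ligand of this family known to bind it strongly. In the liver the pathway is best known for the fenestrated sinusoidal endothelium, which lies between stellate cells, Kupffer cells and hepatocytes.

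Library 1 held 7362 cells and 40645060 UMIs (counted molecules), and library 2 held 2341 cells and 11867207 UMIs. Of these, 6765 and 2341 cells were kept, with medians of 4719 and 5012 UMIs per cell. Cells were given a type, called "-like", from the UMIs of marker genes that include no member. In each type used at least 4 of its markers were seen in 10% or more of its cells. The gate itself asks for at least 3 distinct markers per cell, so this is largely set by the gate and does not check the type names. The endothelial genes Pecam1, Cdh5, Egfl7, Esam and Eng, used only as a check, summed to 2318 to 5741 CPM in the 4 endothelial-like types, 1155 CPM in stellate-like and 787 CPM in Kupffer-like cells. Library 1 gave 14 types of at least 20 cells, from 25 central vein endothelial-like to 2791 sinusoidal endothelial-like and 2497 Kupffer-like cells. Library 2 gave stellate-like cells alone (2339 cells, against 9 in library 1), and the labels do not say why. Before the filter, the highest mitochondrial share of a cell was 97.5% in library 1 and 6.26% in library 2, which lost 0 cells to it. Whether the cells of library 2 had been selected or filtered before deposit was not tested. No type reached 20 cells in both libraries, so no value below has a replicate and no test could be run. Every stellate-like level set beside another type is also a difference between libraries, and the 2 cannot be told apart. Intervals are 95% intervals that cover counting error only. Levels are given as CPM, UMIs per 1000000 UMIs of the type, and are compared between types for 1 gene at a time, not between genes.

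In the GRCm38 annotation Kdr lies on chromosome 5 from 75932827 to 75978458 and Flt1 on chromosome 5 from 147561604 to 147726011, both on the minus strand. Flt4 lies on chromosome 11 from 49609263 to 49652739 (plus strand), Nrp1 on chromosome 8 from 128358604 to 128503363 (plus) and Nrp2 on chromosome 1 from 62703285 to 62818695 (plus). Tek lies on chromosome 4 from 94739289 to 94874976 (plus) and Tie1 on chromosome 4 from 118471191 to 118490061 (minus). Vegfa lies on chromosome 17 from 46016993 to 46032369 (minus), Vegfc on chromosome 8 from 54077606 to 54187096 (plus) and Angpt2 on chromosome 8 from 18690263 to 18741562 (minus). Angpt2 shares its locus with Mcph1 on the other strand (327 UMIs in the kept cells), and Nrp2 shares its locus with Gm37121 on the same strand (275 UMIs). How reads in such shared stretches were counted is not given in the sources used here.

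The promoters of a pair of ligand genes and 3 receptor genes are shown because different types were highest for these ligands and for these receptors. They are RefSeq sequences of build GRCm38.p6, read 5′ to 3′ on the gene's strand up to the start of transcription, without 3 bases that the annotation places inside Kdr. Capitals mark GGAA on either strand (printed GGAA or TTCC), the core bound by ETS factors, a family with many endothelial target genes.
Vegfa (chr17:46032378-46032627, minus strand): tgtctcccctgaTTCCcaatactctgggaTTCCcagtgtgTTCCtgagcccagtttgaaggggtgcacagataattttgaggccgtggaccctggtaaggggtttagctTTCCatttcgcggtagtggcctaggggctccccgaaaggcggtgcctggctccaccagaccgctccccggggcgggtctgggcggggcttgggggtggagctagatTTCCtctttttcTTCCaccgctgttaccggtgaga
Vegfc (chr8:54077282-54077531, plus strand): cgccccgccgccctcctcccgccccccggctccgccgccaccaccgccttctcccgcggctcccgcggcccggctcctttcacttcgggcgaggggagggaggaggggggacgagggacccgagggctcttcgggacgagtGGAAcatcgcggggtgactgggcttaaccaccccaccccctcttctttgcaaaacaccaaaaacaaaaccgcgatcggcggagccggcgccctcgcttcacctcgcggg
Kdr (chr5:75978459-75978705, minus strand): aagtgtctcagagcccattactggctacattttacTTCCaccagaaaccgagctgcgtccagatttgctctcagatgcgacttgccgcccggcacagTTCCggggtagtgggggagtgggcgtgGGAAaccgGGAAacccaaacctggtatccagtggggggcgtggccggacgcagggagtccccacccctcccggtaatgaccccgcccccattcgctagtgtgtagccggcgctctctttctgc
Flt1 (chr5:147726012-147726261, minus strand): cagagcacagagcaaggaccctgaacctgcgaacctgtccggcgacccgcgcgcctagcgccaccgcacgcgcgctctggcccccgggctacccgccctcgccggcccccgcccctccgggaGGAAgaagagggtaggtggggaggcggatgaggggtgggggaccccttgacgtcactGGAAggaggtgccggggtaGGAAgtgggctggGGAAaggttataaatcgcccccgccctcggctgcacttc
Tek (chr4:94739039-94739288, plus strand): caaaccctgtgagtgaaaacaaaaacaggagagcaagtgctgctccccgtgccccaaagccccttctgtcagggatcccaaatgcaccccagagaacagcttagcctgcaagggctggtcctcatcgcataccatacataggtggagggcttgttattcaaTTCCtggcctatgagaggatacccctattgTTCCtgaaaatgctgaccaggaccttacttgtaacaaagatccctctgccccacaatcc
GGAA occurred 4 times in the Kdr and Flt1 promoters, 2 times in that of Tek, 6 times in that of Vegfa and 1 time in that of Vegfc. These 4 letters are common. They stand in 93.4% of 32851 RefSeq promoters of the same length, with a median of 3. Fewer than the 4 of Kdr and Flt1 were held by 66.6% of promoters. The share with fewer was 91.3% for Vegfa, 23.2% for Tek and 6.55% for Vegfc. A further RefSeq promoter of Vegfa, not printed here, held GGAA 2 times. The longer ETS sequence CAGGAAG, found in 10.8% of promoters, was in none of the 5 windows. GGGCGG, the GC box, was in 4 of the 5 windows, all but that of Tek, against 32.7% of promoters. A RefSeq promoter was matched for 9 of the 10 members.

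Vegfa was highest in epithelial cells. In cholangiocyte-like cells, the lining of bile ducts, 117 UMIs gave 174 CPM (144 to 209), and 30 of 33 cells (90.9%) held at least 1 UMI. In hepatocyte-like cells 116 UMIs gave 79.7 CPM (65.9 to 95.6), in 51 of 203 cells. The cholangiocyte-like level was 2.18-fold that of hepatocyte-like cells (1.67 to 2.85), a difference beyond counting error. Portal fibroblast-like cells followed with 39 UMIs and 72.7 CPM (51.7 to 99.3), then neutrophil-like cells with 4 UMIs and 60.7 CPM (16.6 to 156), and portal and arterial vascular endothelial-like cells with 37 UMIs and 50.9 CPM (35.8 to 70.1). No neighbours from hepatocyte-like down to the vascular type differed beyond counting error. The other types of the sinusoid stood below hepatocyte-like cells. Stellate-like cells (166 UMIs, library 2) stood at 14.0 CPM (11.95 to 16.3), sinusoidal endothelial-like cells (204 UMIs) at 13.7 CPM (11.9 to 15.7) and Kupffer-like cells (55 UMIs) at 4.60 CPM (3.46 to 5.99). Vegfa in hepatocyte-like cells was 5.81-fold that in sinusoidal endothelial-like cells (4.59 to 7.34).

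Depth sets part of the share of cells with a Vegfa UMI. Cholangiocyte-like cells had a median of 15920 UMIs, hepatocyte-like cells 2391 and Kupffer-like cells 4108. After each cell was thinned to 1500 UMIs, Vegfa was seen in 7 of 33 cholangiocyte-like cells (21.2%, 8.98 to 38.9), 12 of 135 hepatocyte-like cells (8.89%, 4.68 to 15.0) and 12 of 2132 Kupffer-like cells (0.563%, 0.291 to 0.981). The order of the 3 types was the same as by CPM, and the first 2 intervals overlapped. Because the gate types differ so much in size, the source by number of molecules differed from the source by level. Of the Vegfa UMIs in kept cells of library 1, 22.5% were in sinusoidal endothelial-like cells, 12.9% in cholangiocyte-like, 12.8% in hepatocyte-like and 6.07% in Kupffer-like cells, and 33.3% were in cells that passed no gate. The hepatocyte-like cells were 203 of 6765 kept cells, so these shares describe this cell preparation and not the liver.

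Vegfc was a gene of vessels and mesenchymal cells. Portal and arterial vascular endothelial-like cells held 149 UMIs, 205 CPM (173 to 241), in 52 of 81 cells. Portal fibroblast-like cells held 47 UMIs, 87.6 CPM (64.4 to 116), and stellate-like cells of library 2 held 860 UMIs, 72.5 CPM (67.8 to 77.6). The vascular level was 2.34-fold that of portal fibroblast-like cells (1.68 to 3.32), and the latter did not differ from stellate-like cells beyond counting error (1.21-fold, 0.880 to 1.62). Below these came mesothelial-like cells with 28 UMIs and 14.8 CPM (9.86 to 21.4) and sinusoidal endothelial-like cells with 182 UMIs and 12.2 CPM (10.5 to 14.2). Stellate-like cells thus stood 5.93-fold above sinusoidal endothelial-like cells (5.05 to 6.99), across the 2 libraries. Kupffer-like cells held 8 Vegfc UMIs, 0.669 CPM (0.289 to 1.32).

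Vegfc was not seen in central vein or lymphatic endothelium. Limits for a count of 0 are set here at 3 counts. Where a share is given, it limits cells with a UMI and not cells that express the gene. Central vein endothelial-like cells held 0 UMIs in 25 cells, which allows a UMI in up to 12% of cells and 18.9 CPM (exact 95% bound 23.3 CPM), so the vascular level was at least 10.8-fold higher. Lymphatic endothelial-like cells held 0 UMIs in 26 cells, which allows a UMI in up to 11.5% of cells and 18.2 CPM (exact bound 22.4 CPM). Cholangiocyte-like cells, the type with the most Vegfa, held 0 Vegfc UMIs in 33 cells (up to 4.47 CPM). After thinning, Vegfc was seen in 21.8% of 78 vascular cells (13.2 to 32.6), 10.1% of 2329 stellate-like cells and 0.141% of 2132 Kupffer-like cells. The order of these 3 types by share was that by CPM, and their median depths were 7231, 5012 and 4108 UMIs. Portal fibroblast-like cells, above stellate-like cells by CPM, were below them by share, with 6 of 74 cells (8.11%, 3.03 to 16.8). That interval covers the stellate-like share.

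Angpt2 was highest in lymphatic endothelial-like cells. They held 34 UMIs in 7 of 26 cells, 206 CPM (143 to 288), and 1 cell held 18 of these UMIs. Among the types of at least 20 cells, sinusoidal endothelial-like cells came next with 428 UMIs in 331 of 2791 cells, 28.8 CPM (26.1 to 31.6). These UMIs were 85.1% of all Angpt2 UMIs in the kept cells of library 1. The lymphatic level was 7.17-fold the sinusoidal level (4.90 to 10.2). Without that 1 cell, left out after the values were seen, it was 104 CPM (59.5 to 169) and 3.62-fold (2.05 to 5.94), still the highest. The sinusoidal level was 4.19-fold that of the vascular type (1.78 to 12.96), which held 5 UMIs. Central vein endothelial-like cells held 1 UMI and cholangiocyte-like cells 4 UMIs. A smooth muscle-like gate gave 15 cells in library 1, too few to be used. They held 5 Angpt2 UMIs in 5 cells, 44.8 CPM (14.5 to 105), an interval that covers the sinusoidal level. Stellate-like cells held 11 UMIs (0.928 CPM), Kupffer-like cells 9 UMIs (0.753 CPM), and mesothelial-like and portal fibroblast-like cells 0 UMIs (up to 1.59 and 5.59 CPM).

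**Figure D1:**
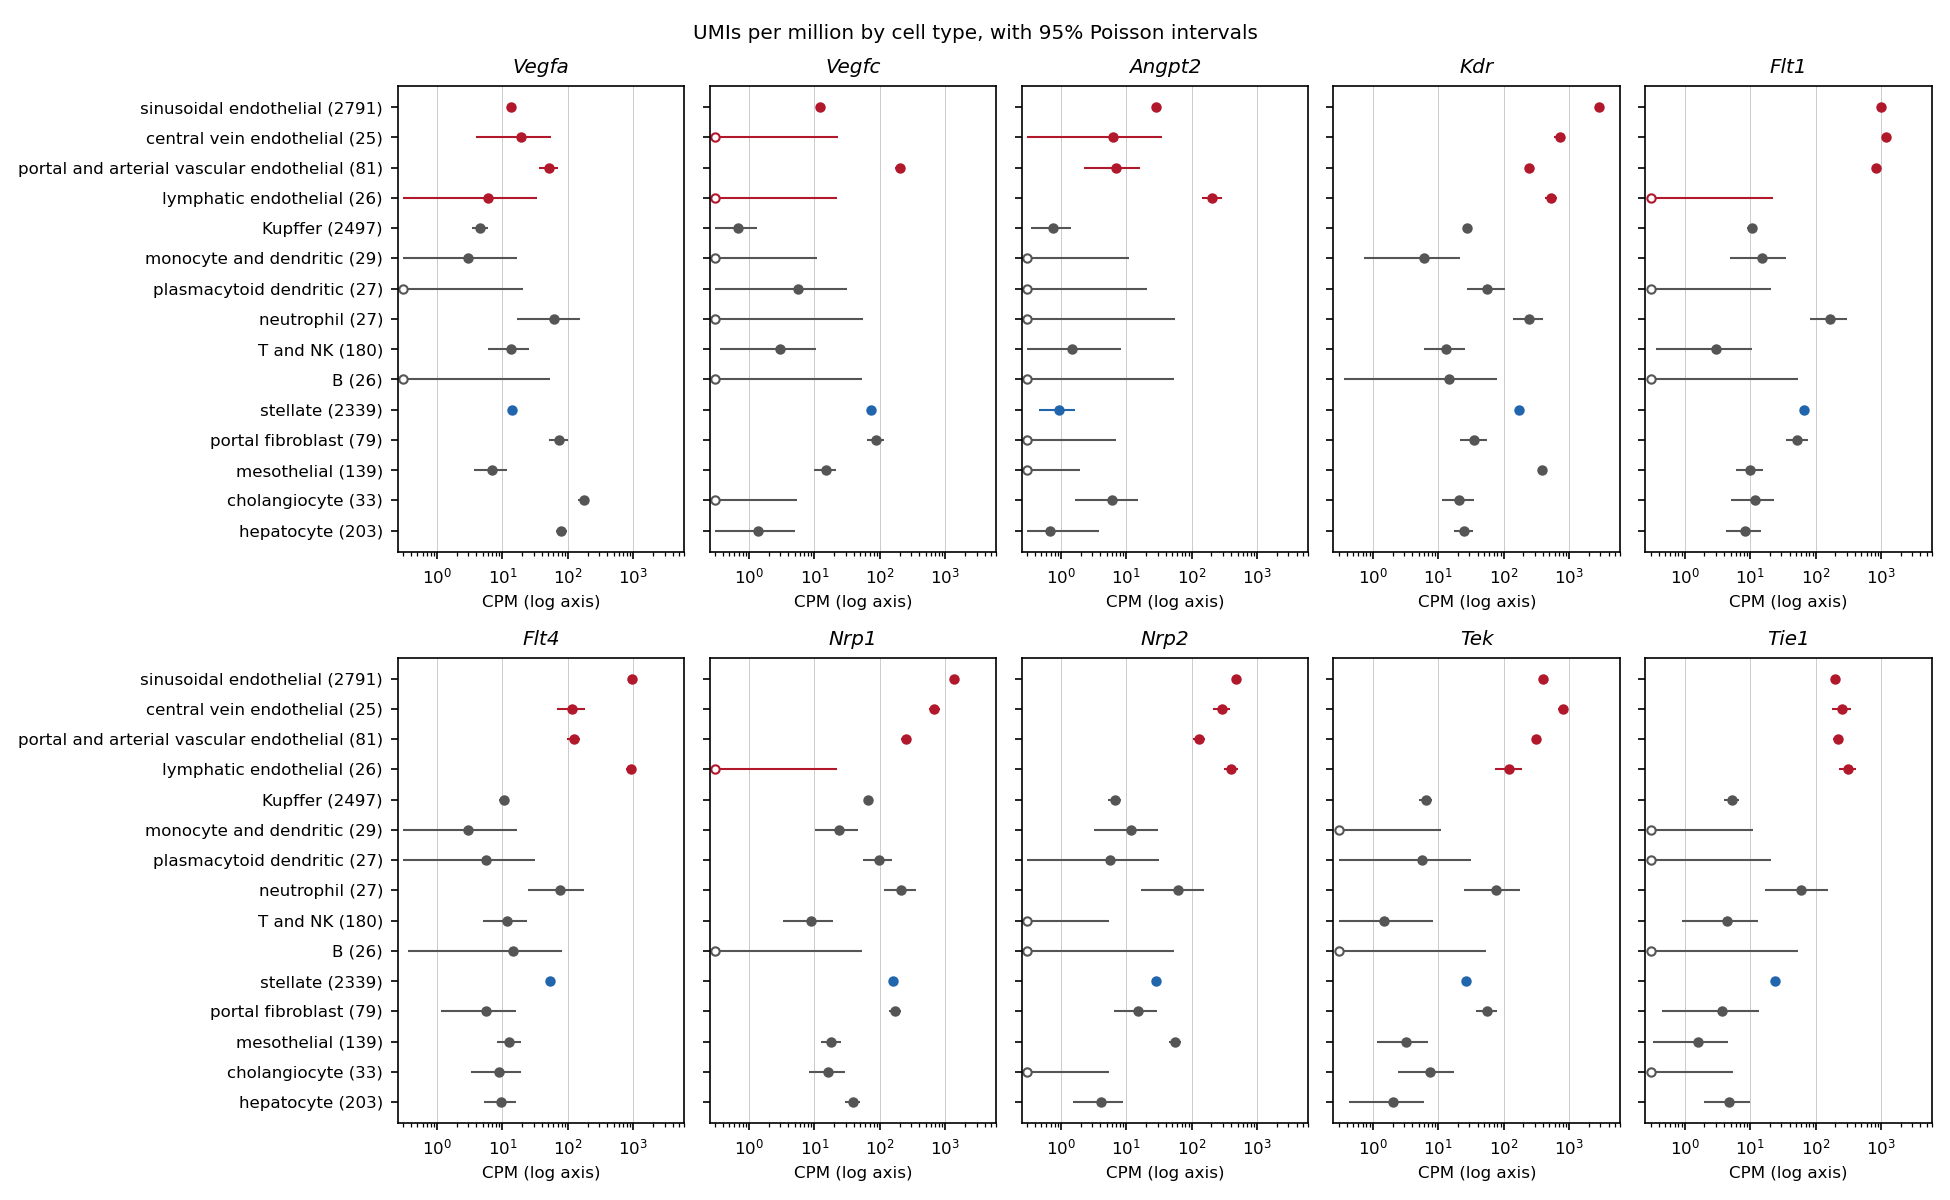
Level of each member by cell type, in CPM on a log axis, with the number of cells of each type in parentheses. Points are levels from summed UMIs and bars 95% Poisson intervals (counting error only). Red marks endothelial-like types, blue stellate-like cells (library 2), grey the others, and an open circle at 0.3 CPM stands for 0 UMIs. Vegfa is highest at 174 CPM in a grey type, and the other 9 members are highest in a red type.

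Kdr, the main signalling receptor for VEGF-A, stood highest in the sinusoid. Sinusoidal endothelial-like cells held 42379 UMIs, 2849.9 CPM (2823 to 2877), in 2756 of 2791 cells (98.7%). These were 93.8% of the Kdr UMIs in the kept cells of library 1. The level was 3.99-fold (3.32 to 4.85) that of central vein endothelial-like cells, which held 113 UMIs, 714 CPM (588 to 858). Lymphatic endothelial-like cells held 88 UMIs, 534 CPM (428 to 658), mesothelial-like cells, the surface layer of the liver, 726 UMIs, 385 CPM (357 to 414), and the vascular type 179 UMIs, 246 CPM (211 to 285). Each of the first 4 types was above the next beyond counting error. Stellate-like cells held 1999 UMIs, 169 CPM (161 to 176), and Kupffer-like cells 328 UMIs, 27.4 CPM (24.5 to 30.6). A Kdr UMI was seen in 97.5% of thinned sinusoidal endothelial-like cells and in 3.94% of thinned Kupffer-like cells.

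Flt1, the high-affinity receptor that can hold VEGF-A back from KDR, was shared by 3 blood endothelial types. Central vein endothelial-like cells held 187 UMIs, 1181 CPM (1018 to 1363), with a UMI in all 25 cells. Sinusoidal endothelial-like cells held 14890 UMIs, 1001 CPM (985 to 1018), and the vascular type 602 UMIs, 828 CPM (763 to 897). The steps between these 3 were small though beyond counting error, 1.18-fold (1.02 to 1.36) and 1.21-fold (1.11 to 1.31). Of the central vein Flt1 UMIs 15 were in 1 cell. Without it, a choice made after the values were seen, the central vein level was 1.14-fold the sinusoidal one (0.977 to 1.33), which counting error covers. Lymphatic endothelial-like cells held 0 Flt1 UMIs in 26 cells, which allows a UMI in up to 11.5% of cells and 18.2 CPM (exact bound 22.4 CPM), so the sinusoidal level was at least 55.0-fold higher. At this depth Flt1 was not detected in the lymphatic type, whereas Kdr was measured in lymphatic and blood endothelium.

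Flt4, the receptor for VEGF-C, stood at a like level in sinusoidal and lymphatic endothelium. Sinusoidal endothelial-like cells held 14033 UMIs, 944 CPM (928 to 959), and lymphatic endothelial-like cells 151 UMIs, 916 CPM (776 to 1075). Their ratio was 1.03, and the interval allows a sinusoidal level from 0.877 to 1.22 times the lymphatic one, so which of them was higher is not settled. The lymphatic level was 7.49-fold (5.72 to 9.84) that of the vascular type, which held 89 UMIs, 122 CPM (98.3 to 151). Central vein endothelial-like cells held 18 UMIs, 114 CPM (67.4 to 180). The vascular type, highest for the ligand Vegfc, was therefore low for the receptor Flt4, and the lymphatic type had the receptor with 0 UMIs of the ligand.

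Nrp1 was highest in sinusoidal endothelial-like cells with 20427 UMIs, 1374 CPM (1355 to 1393), 2.01-fold (1.67 to 2.46) the level of central vein endothelial-like cells with 108 UMIs, 682 CPM (560 to 824). The vascular type held 181 UMIs, 249 CPM (214 to 288), portal fibroblast-like cells 92 UMIs, 171 CPM (138 to 210), and stellate-like cells 1916 UMIs, 162 CPM (155 to 169). Lymphatic endothelial-like cells held 0 Nrp1 UMIs, so the sinusoidal level was at least 75.5-fold higher. Nrp2 was measured in both of these types. It stood at 477 CPM (466 to 488; 7093 UMIs) in sinusoidal and 400.4 CPM (310 to 509; 66 UMIs) in lymphatic endothelial-like cells, a ratio of 1.19 (0.935 to 1.54) that counting error covers, and at 291 CPM (213 to 388; 46 UMIs) in central vein endothelial-like cells. Of the lymphatic Nrp2 UMIs 18 were in 1 cell, and without it the lymphatic level was 305 CPM (225 to 405) and the sinusoidal level 1.56-fold higher (1.18 to 2.12), beyond counting error. The lymphatic type held Flt4 and Nrp2 with no UMI of Flt1 or Nrp1, and the sinusoidal type held all 4.

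Tek, the angiopoietin receptor, was highest at the central vein. Central vein endothelial-like cells held 129 UMIs, 815 CPM (680 to 968), in 24 of 25 cells, 2.02-fold (1.68 to 2.40) the sinusoidal level of 404 CPM (394 to 414; 6005 UMIs). The vascular type held 227 UMIs, 312 CPM (273 to 356), and lymphatic endothelial-like cells 20 UMIs, 121 CPM (74.1 to 187). Tie1 was the most even member within endothelium. It stood at 309 CPM (230 to 407; 51 UMIs) in lymphatic, 253 CPM (181 to 344; 40 UMIs) in central vein, 220.0 CPM (187 to 257; 160 UMIs) in vascular and 195 CPM (188 to 202; 2901 UMIs) in sinusoidal endothelial-like cells, and no neighbours in that order differed beyond counting error. The ends of the order did, with a lymphatic level 1.59-fold the sinusoidal one (1.18 to 2.09). Lymphatic endothelial-like cells, highest for the ligand Angpt2, thus stood below the 3 blood endothelial types for its receptor Tek.

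Against the mean of the other types, a fold of at least 2 was reached by 7 of the 10 members in sinusoidal endothelial-like cells (Kdr, Flt1, Flt4, Nrp1, Nrp2, Tek and Tie1), where 13.7% of the 14783 genes with at least 50 UMIs reached it. The count was 6 of 10 in central vein endothelial-like cells (12.5% of all genes), 4 in the vascular type (Vegfc, Flt1, Tek and Tie1; 9.91%) and 4 in lymphatic endothelial-like cells (Angpt2, Flt4, Nrp2 and Tie1; 13.2%). Vegfc was the 1 member past this fold in stellate-like cells (12.4%), Vegfa and Vegfc were past it in portal fibroblast-like cells (12.7%), and Vegfa in cholangiocyte-like (17.0%) and hepatocyte-like cells (10.8%). The median log2 ratio of the members was 2.27 in sinusoidal endothelial-like cells, beside -0.08 for all genes tested, and -3.78 in Kupffer-like cells, beside -0.39. No member passed the fold in Kupffer-like (11.9%), monocyte and dendritic-like (7.91%), plasmacytoid dendritic-like (13.7%), neutrophil-like (9.84%), T and NK-like (10.7%), B-like (13.3%) or mesothelial-like cells (12.6%). All 10 members were at least 2-fold lower in Kupffer-like (35.3% of all genes), monocyte and dendritic-like (49.6%), plasmacytoid dendritic-like (46.2%), T and NK-like (41.8%) and B-like cells (57.8%). Cholangiocyte-like (29.5%) and hepatocyte-like cells (58.2%) had 9 lower members, all but Vegfa. Stellate-like cells had 8 (26.1%), and portal fibroblast-like (31.6%) and mesothelial-like cells (27.6%) had 7 each. Lymphatic endothelial-like cells had 4 (Vegfa, Vegfc, Flt1 and Nrp1; 41.5%) and neutrophil-like cells 3 (69.1%). Sinusoidal endothelial-like cells had 2 (Vegfa and Vegfc; 28.1%), central vein endothelial-like cells 2 (Vegfc and Angpt2; 40.6%) and the vascular type 1 (Angpt2; 30.5%). With the highest other type in place of the mean, the sinusoidal count fell to 2 and the central vein, vascular and lymphatic counts to 1 each, since the members are shared among endothelial types.

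RNA released from broken cells can place endothelial UMIs in any droplet, so each receptor level was set beside 6 sinusoidal gate markers (Stab2, Clec4g, Oit3, Gpr182, Fcgr2b and Ehd3), all as a percent of the level in sinusoidal endothelial-like cells. In mesothelial-like cells the 6 markers stood at 0.704 to 1.32%, whereas Kdr stood at 13.5% and Nrp2 at 11.7%. Flt1, Flt4, Nrp1, Tek and Tie1 stood there at 0.787 to 1.35%, about where the markers were. Kdr was seen in 122 of 139 mesothelial-like cells (87.8%; median depth 12017 UMIs) and, after thinning, in 43.9% of them. Kdr and Nrp2 thus lay above the highest marker in mesothelial-like cells by a wide margin, and the other receptors did not.

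In portal fibroblast-like cells the markers stood at 0.426 to 1.63%. Tek (13.8%; 30 UMIs in 19 of 79 cells), Nrp1 (12.5%; 92 UMIs in 43 cells) and Flt1 (5.21%; 28 UMIs in 13 cells) were above them. So were Nrp2 (3.13%) and Tie1 (1.91%), on only 8 and 2 UMIs. Kdr stood at 1.24% and Flt4 at 0.592%. Kupffer-like cells had 5 of 6 markers at 0.829 to 1.35% and Stab2 at 10.2%. Nrp1 stood there at 4.77% (783 UMIs in 584 of 2497 cells), Tie1 at 2.66%, Tek at 1.59% and Nrp2 at 1.38%. Kdr, Flt1 and Flt4 stood at 0.962 to 1.13%. In stellate-like cells the markers stood at 4.09 to 33.2%, with Ehd3 highest, the next at 8.95% and a median of 8.72%. There 5 of the 7 receptors, at 5.71 to 6.56%, lay below the marker median, while Nrp1 (11.8%) and Tie1 (12.3%) lay above 5 of the 6 markers and below Ehd3. These percentages set library 2 against a sinusoidal level of library 1, and the part of free RNA in the stellate values was not tested. In neutrophil-like cells, where the markers stood at 2.81 to 10.7%, all 16 Kdr UMIs lay in 2 of 27 cells. The gate leaves out cells with many UMIs of another type's markers, so it sets the marker levels in part.

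**Figure D2:**
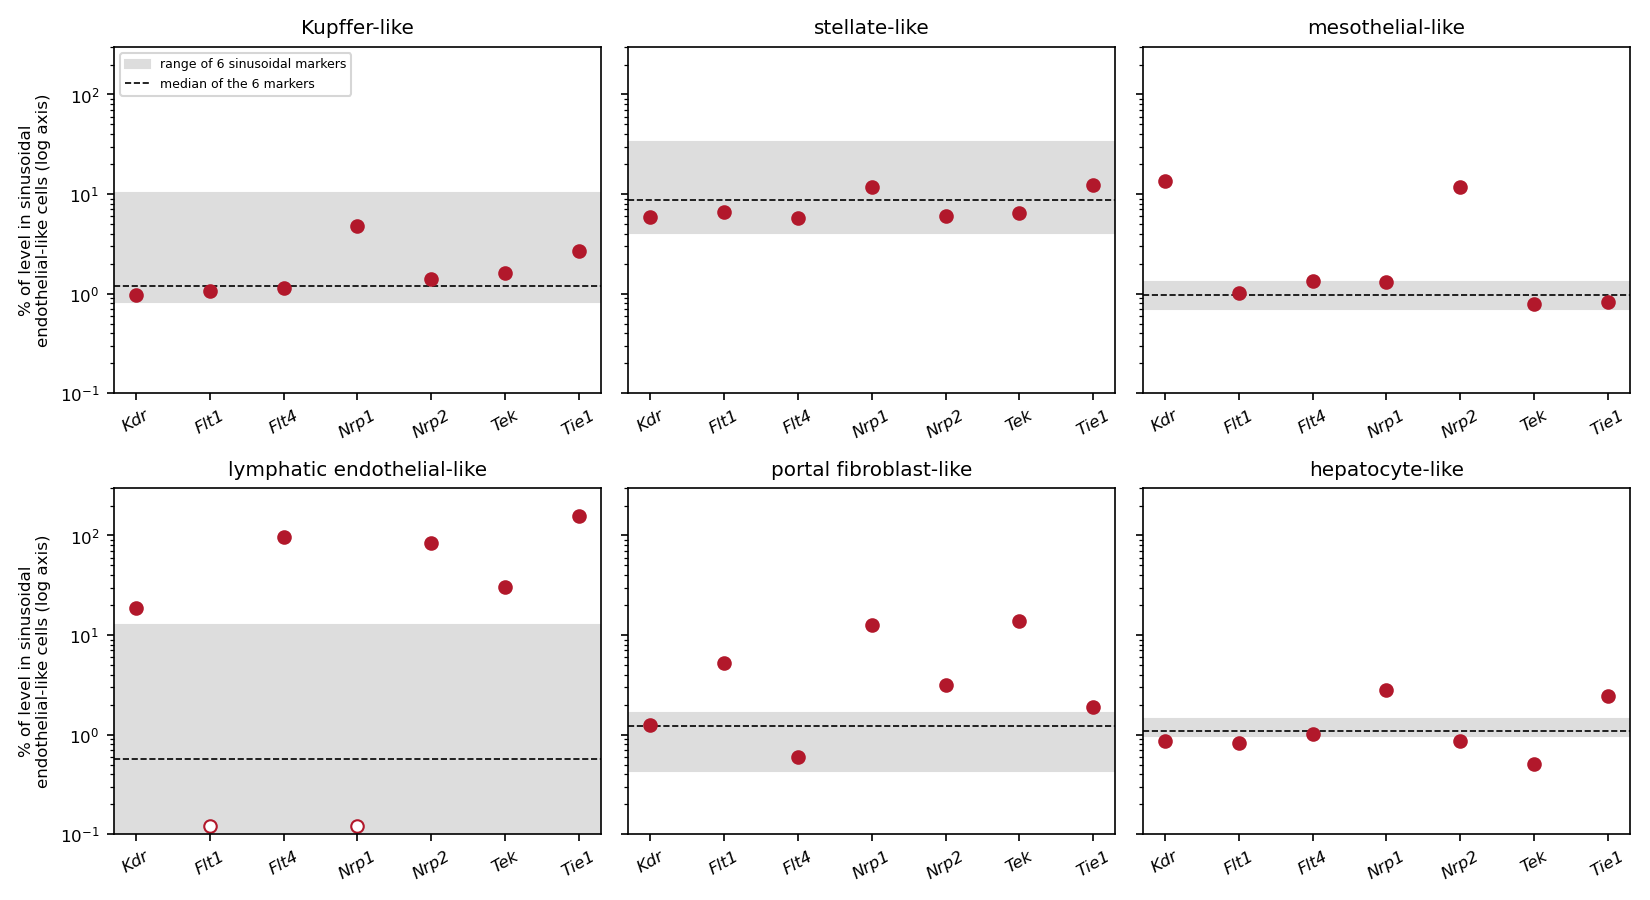
Level of the 7 receptor genes in 6 types, as a percent of the level in sinusoidal endothelial-like cells on a log axis. The grey band is the range of 6 sinusoidal markers in the same type (its floor drawn at no less than 0.1%), the dashed line their median, and open circles at the bottom are 0 UMIs. Kdr (13.5%) and Nrp2 (11.7%) stand above the band in mesothelial-like cells, and all receptors stand inside it in stellate-like cells.

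Among endothelial types the same comparison set apart what each type held. In lymphatic endothelial-like cells 5 of the 6 markers were at 0 to 1.26% and Gpr182 at 12.5%, and Kdr stood at 18.7% of the sinusoidal level. In central vein endothelial-like cells the markers ranged from 0 to 37.3%, so their Kdr, at 25.0%, lay inside that range, while Flt1 at 118% and Tek at 202% lay above it. The summed level of the 6 markers was 12381 CPM in sinusoidal, 2507 CPM in central vein, 736 CPM in vascular and 212 CPM in lymphatic endothelial-like cells. The part of sinusoidal RNA in the central vein values was not tested.

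Single sinusoidal endothelial-like cells mostly held all 3 VEGF receptor genes. The median cell had 13 Kdr UMIs (quartiles 8 and 20, highest 87), 4 Flt1 UMIs (2 and 7), 4 Flt4 UMIs (2 and 7) and 6 Nrp1 UMIs (3 and 10). After thinning to 1500 UMIs, Kdr, Flt1 and Flt4 were all seen in 1376 of 2557 cells (53.8%, 51.9 to 55.8), and none of them in 12 cells (0.469%). At least 4 of the 7 receptor genes were seen in 2109 of these cells. The cells with fewer at this depth are not shown to lack them.

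Sinusoidal endothelial-like cells were then put in order from central vein to portal tract by 8 landmark genes that include no member (central Wnt2, Kit, Cdh13 and Thbd, portal Efnb2, Ltbp4, Ntn4 and Msr1), and the outer ranges of 930 cells each were compared. All 8 landmarks kept their side when scored without themselves. Vegfc and Angpt2 differed along this order, and the receptors hardly did. Vegfc had 2 UMIs in the central, 20 in the middle and 160 in the portal range, 0.399 CPM (0.0484 to 1.44), 4.11 CPM (2.51 to 6.35) and 32.0 CPM (27.2 to 37.4), and the portal level was 80.1-fold the central one (21.8 to 667). With 2 central UMIs the size of this fold is loose. It was 24.3-fold between 2 equal ranges and 135-fold between the outer 2 of 5. Angpt2 had 55, 138 and 235 UMIs, at 10.98, 28.4 and 47.0 CPM, a portal level 4.28-fold the central one (3.18 to 5.85). These were 2 of 10 members past 2-fold on the portal side, where 1.52% of 9939 genes were, and 0 of 10 members were past it on the central side (1.36%).

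The receptor genes kept within a narrow range along the same order. Kdr stood at 3113 CPM in the central and 2526 CPM in the portal range, 1.23-fold higher at the central end (1.20 to 1.26), and Flt1 likewise at 1122 and 912 CPM (1.23-fold, 1.18 to 1.28). Flt4, Nrp1, Nrp2, Tek and Tie1 had central over portal ratios from 0.952 (Nrp1) to 1.14 (Tie1). Vegfa stood at 17.4 and 11.2 CPM (87 and 56 UMIs), 1.55-fold higher at the central end (1.10 to 2.21). For these 8 members the interval lay on 1 side of 1, and none reached 2-fold.

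The portal Vegfc and Angpt2 UMIs came from a minority of cells. Vegfc was seen in 107 of 930 portal and 2 of 930 central cells, Angpt2 in 172 and 48, and both genes in 27 portal and 0 central cells. The 5 portal cells with most Vegfc held 25 of the 160 UMIs. Markers of the portal and arterial vascular type moved with this order. Without Ltbp4, which is also a landmark, 7 of them summed to 10.98 CPM in the central and 118 CPM in the portal range, beside 3509 CPM in the vascular type itself. Among the 2381 sinusoidal endothelial-like cells without a UMI of these 7 markers, a choice made after the values were seen, Vegfc had 1 central and 58 portal UMIs (61.3-fold, 10.6 to 2461) and Angpt2 a portal level 4.06-fold the central one (2.91 to 5.77). After thinning to 1500 UMIs, landmarks included, Vegfc had 1 and 44 UMIs and Angpt2 22 and 62 (2.82-fold, 1.71 to 4.81). In 20 further draws of this thinning, added after values were seen, Vegfc had 0 to 4 central and 29 to 44 portal UMIs, and the ratio of the sums was 23.8 for Vegfc and 3.47 for Angpt2.

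**Figure D3:**
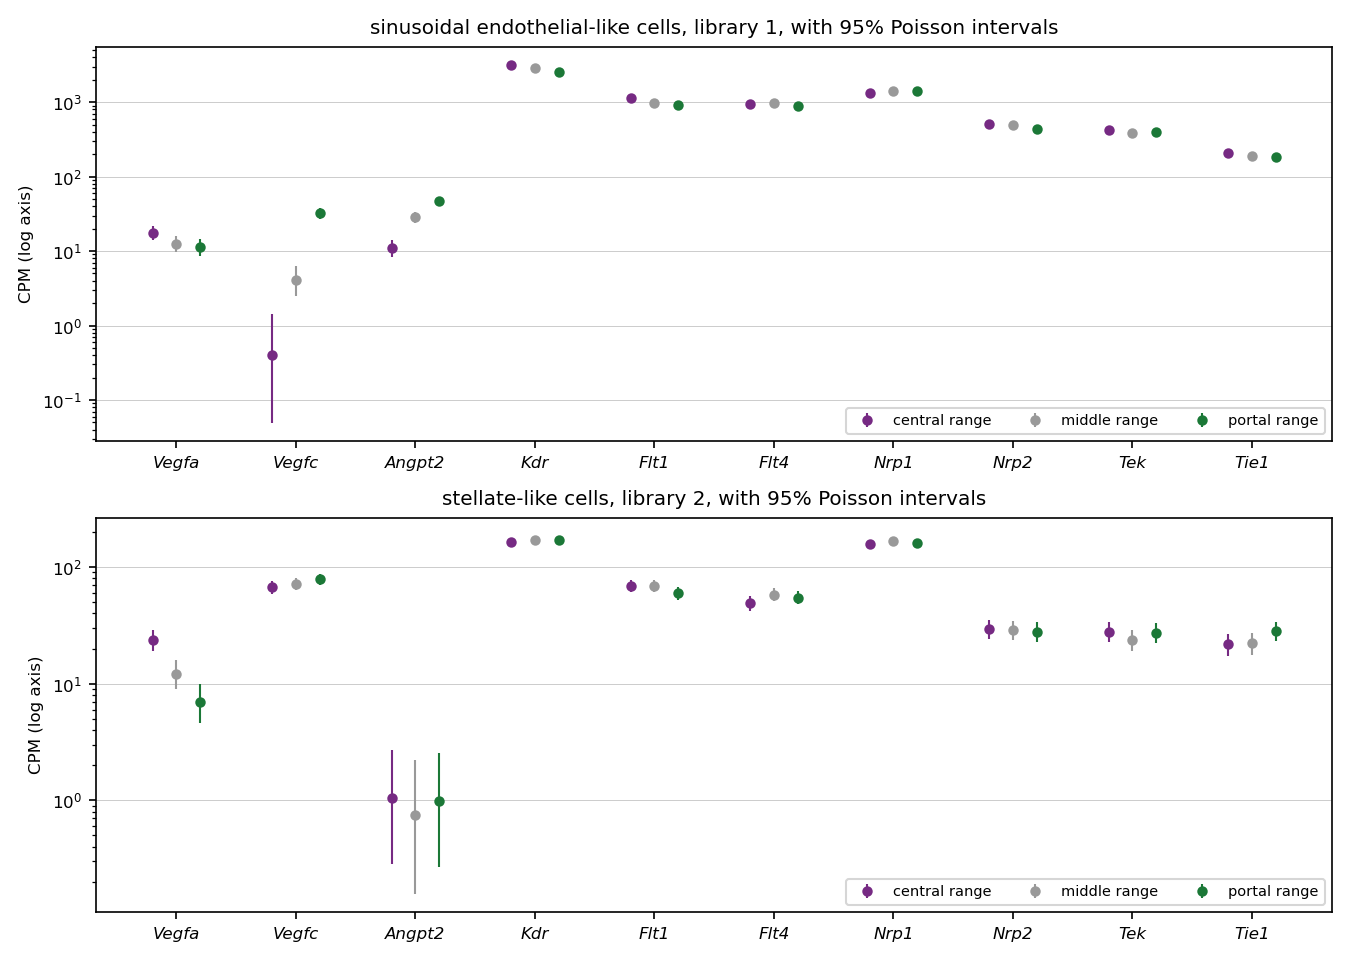
Level of each member in the central, middle and portal range of the landmark order, in CPM on a log axis, for sinusoidal endothelial-like cells of library 1 (upper panel) and stellate-like cells of library 2 (lower panel). Points are levels from summed UMIs and bars 95% Poisson intervals. In the upper panel Vegfc goes from 0.399 to 32.0 CPM and Angpt2 from 10.98 to 47.0 CPM toward the portal range, and in the lower panel Vegfa goes from 23.5 to 6.90 CPM.

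Stellate-like cells of library 2 were put in order in the same way by other landmarks (central Adamtsl2, Loxl1, Podn and Spon2, portal Ngfr, Itgb3, Igfbp3 and Il34), with 779 cells in each outer range. Vegfc did not differ between the outer ranges beyond counting error, at 67.2 CPM central, 72.0 CPM middle and 78.2 CPM portal (257, 286 and 317 UMIs; central over portal 0.859, 0.726 to 1.02). Vegfa had 90 UMIs in the central and 28 in the portal range, 23.5 and 6.90 CPM, a ratio of 3.41 (2.21 to 5.41). It was 1 of 9 members with at least 50 UMIs to pass 2-fold on the central side, where 1.11% of 9727 genes did, and 0 of 9 passed on the portal side (1.05%). The Vegfa call was lost on thinning to 1500 UMIs with the landmarks thinned too, where 18 UMIs fell in either range (ratio 1, 0.491 to 2.04). In the 20 further draws the central range held 16 to 33 UMIs and the portal range 6 to 14, and the ratio of the sums was 2.63. The draws share their cells and are not independent. No receptor gene passed 2-fold along the stellate order.

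Of the other genes of the pathway, 5 further ligand genes were read first. Vegfb, which binds FLT1, was seen at 72.8 CPM (12 UMIs) in lymphatic endothelial-like and 61.1 CPM (724 UMIs) in stellate-like cells. Vegfd, like VEGF-C a ligand of FLT4, was highest in portal fibroblast-like cells at 127 CPM (98.4 to 161; 68 UMIs), ahead of mesothelial-like cells at 19.1 CPM. Angpt1, the activating ligand of TEK, was highest in cholangiocyte-like cells at 55.1 CPM (38.8 to 75.9; 37 UMIs) and stood at 23.2 CPM (275 UMIs) in stellate-like cells. Pgf, a ligand of FLT1, stood at 54.6 CPM (9 UMIs) in lymphatic endothelial-like and 46.6 CPM (25 UMIs) in portal fibroblast-like cells. Portal fibroblast-like cells were past 2-fold for 3 of the 4 ligand genes with enough UMIs (12.7% of all genes). Stellate-like (12.4%) and lymphatic endothelial-like cells (13.2%) were past it for 2 each, and Angpt4, with 19 UMIs, was not tested.

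Genes of ligand processing and receptor modulation, read as 1 list, did not share 1 leading type. Ccbe1, which helps ADAMTS3 cleave VEGF-C, was highest in stellate-like cells at 243 CPM (234 to 252; 2881 UMIs), ahead of portal fibroblast-like cells at 74.5 CPM (40 UMIs). Adamts3 was sparse, with 5.90 CPM (70 UMIs) in stellate-like cells. Adamts2 stood at 294 CPM (250 to 344) in portal fibroblast-like and 137 CPM in stellate-like cells, and Svep1 at 265 CPM (223 to 312; 142 UMIs) in portal fibroblast-like but 1.27 CPM (15 UMIs) in stellate-like cells. Adamts14 stood at 20.7 CPM (14 UMIs) in T and NK-like cells, which held 2 Vegfc UMIs, and at 19.8 CPM (235 UMIs) in stellate-like cells. Of the 6 genes in this list 4 passed 2-fold in stellate-like cells (12.4% of all genes) and 4 in portal fibroblast-like cells (12.7%). In each of the sinusoidal (13.7%), central vein (12.5%) and vascular types (9.91%) 1 gene (Ptprb) did. Ptprb, the phosphatase that holds TEK in check, stood at 4989 CPM (4647 to 5350) in central vein and 4348 CPM in sinusoidal endothelial-like cells. It is thus among the genes whose pattern over types was most like that of Tek itself.

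Of 8 genes that act below the receptors, 4 passed 2-fold in sinusoidal endothelial-like cells (Plcg1, Nos3, Nck1 and Dab2; 13.7% of all genes) and 4 in central vein endothelial-like cells (Plcg1, Nos3, Foxo1 and Nck1; 12.5%). In lymphatic endothelial-like (13.2%) and in T and NK-like cells (10.7%) 3 did. Dab2, an endocytic adaptor, was highest in sinusoidal endothelial-like cells at 706 CPM (693 to 720), with mesothelial-like cells next at 394 CPM. Nos3, the endothelial nitric oxide synthase, stood at 93.5 CPM (72.6 to 119) in the vascular type and 88.4 CPM in central vein endothelial-like cells. Sh2d2a and Dok2 were highest in T and NK-like cells, at 256 and 112 CPM, which held few UMIs of any member. The genes of this list are used by many receptors besides those of the members.

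Among genes known to be raised by VEGF in endothelium, Dll4, a Notch ligand of arterial cells, was highest in the vascular type at 151 CPM (124 to 182), with sinusoidal endothelial-like cells next at 123 CPM (1825 UMIs). Within sinusoidal endothelial-like cells Dll4 had 286 central and 923 portal UMIs, a 3.23-fold portal excess, and Esm1, a secreted endothelial proteoglycan, had 6 and 278 UMIs. The Esm1 UMIs of the portal range lay in 76 of 930 cells, with 105 of them in 5 cells. Plvap, the protein of fenestral diaphragms, went the other way, with a 2.17-fold central excess (1.94 to 2.42). Across types Plvap was highest in stellate-like cells of library 2 at 2507 CPM (2478 to 2535), ahead of the vascular type at 903 CPM, and Rcan1 in Kupffer-like cells at 339 CPM, so neither was led by an endothelial type. Esm1 stood at 25.2 CPM (375 UMIs) in sinusoidal endothelial-like cells, beside 75.9 CPM from 5 UMIs in neutrophil-like cells. Apln and Aplnr, with 13 and 14 UMIs, were not tested.

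Of the 7 oxygen-sensing genes that act above Vegfa, Epas1 passed 2-fold in sinusoidal (13.7% of all genes), central vein (12.5%), vascular (9.91%) and stellate-like cells (12.4%). It stood at 850 CPM (784 to 920) in the vascular and 842 CPM in the sinusoidal type. It was higher at the portal end of sinusoidal endothelial-like cells, at 1019 against 696 CPM (central over portal 0.683, 0.654 to 0.713). Hif1a stood at 107 and 103 CPM at the 2 ends. Neither Hif1a nor Epas1 passed 2-fold in cholangiocyte-like or hepatocyte-like cells, the types highest in Vegfa, at 44.7 and 33.0 CPM for Hif1a and 52.1 and 54.3 CPM for Epas1. Hif1a passed 2-fold in no type. Egln3 passed it in cholangiocyte-like cells (29.8 CPM, 20 UMIs; 17.0% of all genes) and in mesothelial-like cells (26.5 CPM, 50 UMIs; 12.6%). It also did in central vein (12.5%) and lymphatic endothelial-like cells (13.2%). No gene of the list passed it in hepatocyte-like cells (10.8%).

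Semaphorins that bind the neuropilins were spread over several types. Sema3c was highest in mesothelial-like cells at 635 CPM (600 to 672; 1199 UMIs). Sema3d stood at 243 CPM (40 UMIs) in lymphatic endothelial-like and 234 CPM (441 UMIs) in mesothelial-like cells. Sema3f stood at 240.0 CPM (170 to 329; 38 UMIs) in central vein endothelial-like cells and 215 CPM (156 UMIs) in the vascular type. It passed 2-fold in sinusoidal (13.7% of all genes), central vein (12.5%), vascular (9.91%) and lymphatic endothelial-like cells (13.2%). Mesothelial-like cells, which held Nrp2 above the sinusoidal markers, passed 2-fold for 5 of the 7 semaphorin genes (12.6% of all genes). Sema3g, at 144 CPM in the vascular type, is one of that type's gate markers, and its level there is set by the gate. In sinusoidal endothelial-like cells Sema3d had an 8.28-fold central excess (5.79 to 12.2; 282 and 34 UMIs), opposite to Vegfc.

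**Figure D4:**
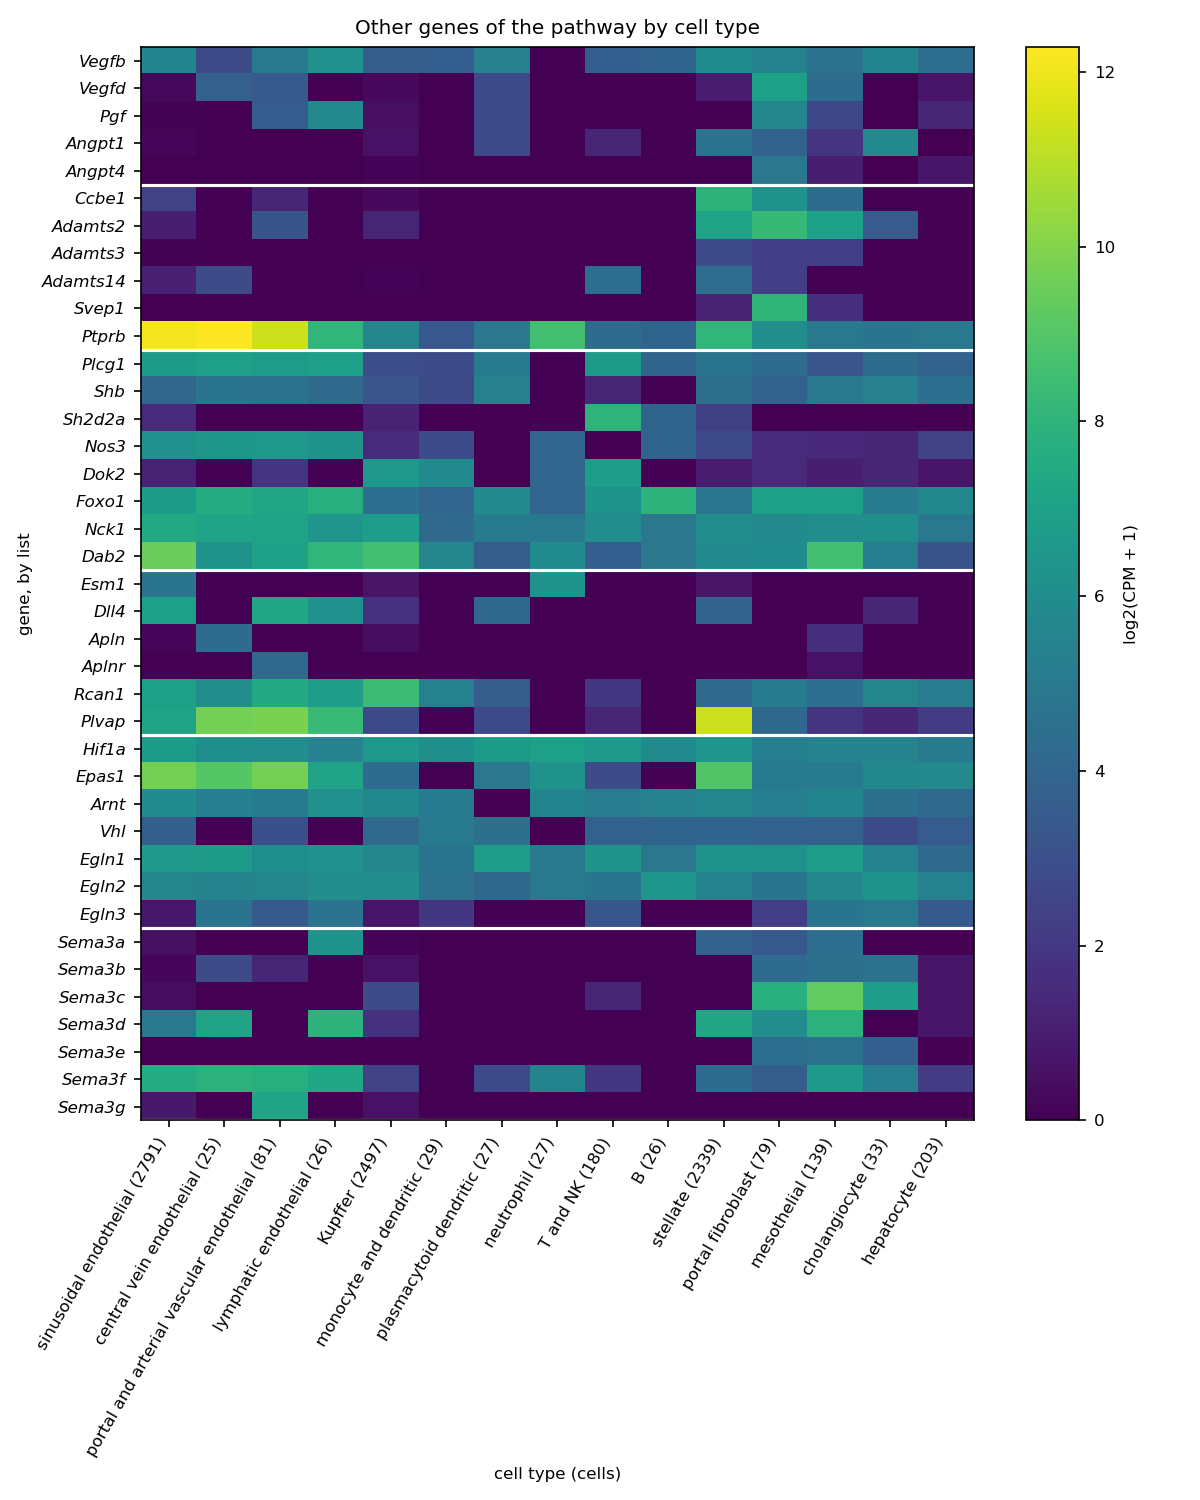
Level of the other pathway genes (rows, parted by white lines into the 6 lists) in the 15 types (columns, number of cells in parentheses), as log2(CPM + 1). Ccbe1 and Plvap are brightest in the stellate-like column, Ptprb and Epas1 across the blood endothelial columns, and Sema3c in the mesothelial-like column.

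By likeness of pattern, the Pearson correlation of log2(CPM + 1) over the 15 types, the nearest genes to Tie1 were Btnl9 (0.977), Nova2 (0.970) and Pik3r3 (0.964). Those nearest to Tek were Cyyr1 (0.966), Fgd5 (0.965) and Ptprb (0.952), and Plpp1 (0.957) was nearest to Nrp2. Btnl9 (0.946), Adgrg3 (0.933) and Gpihbp1 (0.932), the anchor of lipoprotein lipase on capillaries, were nearest to Flt4. Unc45b (0.918), Akap2 (0.915) and Esam (0.912), an endothelial adhesion molecule, were nearest to Kdr, and Tmem106a (0.879) to Nrp1. For the ligands the nearest were Klhl4 to Angpt2 (0.905), Myl9, a myosin light chain, to Vegfc (0.910) and Cep19 to Vegfa (0.843), so no gene followed Vegfa as closely as those named followed the receptors. These values describe 15 points of which 14 share library 1, with its depth and its free RNA, and with Spearman ranks 10 of the 30 nearest genes were the same.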

How the data were processed

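The authors deposited 1 table of raw UMI counts, whole numbers per gene and cell, for both libraries. Per the submitters' processing notes Cell Ranger 2.1.1, Seurat 3.1 and GRCm38 were used, with no step assigned to them. Barcodes end in 1 or 2, taken here as the replicate, and the libraries share 5 barcodes, none of them in the same type in both.

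Kept cells had 200 or more genes and a mitochondrial share of 20% or less, which removed 597 cells of library 1 and 0 of library 2. A cell got a type if at least 3 distinct markers were seen, at 10 or more marker UMIs per 10000, and at least 2 times the UMIs of any other type's markers. These gate numbers were set from marker UMIs after 3 looser gates had been compared by cell counts. Member levels were read only under the final gate. The last condition leaves out many cells with markers of 2 types. No doublet caller was run and free RNA was not subtracted. 578 cells of library 1 (8.54%) and 2 of library 2 passed no gate. In all 8526 of 9106 kept cells had a type.

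UMIs were summed per type and library. Levels have exact Poisson, shares exact binomial (Clopper-Pearson) and ratios exact conditional binomial intervals. A count of 0 was set to a floor of 3 counts per type in ratios. A gene was called at 2-fold against the mean of the other types with at least 50 UMIs in all, or at 2-fold between the outer 2 of 3 equal ranges of a landmark score. Depth was evened by drawing 1500 UMIs per cell, leaving out shallower cells (sinusoidal 2557 of 2791 remain, stellate 2329 of 2339, hepatocyte 135 of 203). All 10 members are named. From each pathway list the genes past 2-fold with most CPM are named, up to 4 per list, and the text adds list genes along the landmark order. The 3 nearest genes per member come from Pearson correlation of log2(CPM + 1), with members and gate markers left out. The text gives a selection of these, and 1 result is not reported here. The members, markers, landmarks and lists were chosen with earlier results of these data known. Coordinates are from GENCODE vM21 (GRCm38). The scripts used Python 3.11.15 with numpy 2.4.6, scipy 1.17.1 and pandas 2.3.3 and were tested on simulated data.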

Additional observations from a re-analysis of the deposited data

Results flagged for a closer look

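Members were also read in the 578 cells of library 1 that passed no gate, which no comparison above uses, and all 10 had more UMIs there than the 3 that a count of 0 allows. Among ligands, Vegfa stood at 80.4 CPM (302 UMIs in 109 cells), which is 33.3% of its UMIs in the kept cells of library 1, Vegfc at 52.7 CPM (198 UMIs in 80 cells) and Angpt2 at 3.99 CPM. Among VEGF receptors, Kdr stood at 323 CPM, Flt1 at 340 CPM and Flt4 at 98.5 CPM. Nrp1 stood at 246 CPM and Nrp2 at 104 CPM, and Tek at 166 CPM and Tie1 at 74.0 CPM. These cells can hold several types, so the values describe no type.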

How the results depend on the processing

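No paired analysis was possible because there is 1 group and no type has 20 cells in both libraries. Without replicate 1 only stellate-like cells are left and no value could be made. Without replicate 2 the counts of members past 2-fold were the reported ones, from 1 to 7 over the types tried, 9 members were still highest in an endothelial type, and the counts of pathway genes ran from 0 to 12. Over 173 alternatives for counts 160 stayed within 1.5 times. Some could not move: other limits of UMIs per gene left all members in, as the lowest, Angpt2, held 494. A count of 0 that stayed 0 was also scored as unchanged. Of the 103 alternatives for single genes none turned a ratio whose interval lay on 1 side of 1. With 4 distinct markers the central vein and lymphatic types fell below 20 cells. There the ratio of the highest to the next type could be formed only for Vegfa and Vegfc. The sinusoidal to lymphatic ratio of Flt4, 1.03, fell to 0.968 with the stricter gate and to 0.979 without the cells with most of its UMIs, and that of Nrp2, 1.19, to 0.986 when cells of more than 1 gate were assigned, so the highest type of these 2 genes depends on the setting. With the highest other type in place of the mean, the members past 2-fold fell to 2 in sinusoidal, 1 in central vein, 1 in vascular, 1 in lymphatic, and 0 in each of stellate-like, portal fibroblast-like and hepatocyte-like cells. Portal fibroblast-like cells had 1 such member with 4 distinct markers and 1 when cells of more than 1 gate went to the type with most marker UMIs. Hepatocyte-like cells had 0 with no filter on cells. Thinned to 1500 UMIs, 1 member passed in the portal range of sinusoidal and 0 in the central range of stellate-like cells. Fewer UMIs are left there, so 50 UMIs are reached less often. Single values that left the counting interval of the reported value were the Kdr ratio of sinusoidal to central vein cells (3.15 when cells of more than 1 gate were assigned), the Vegfa ratio of cholangiocyte-like to hepatocyte-like cells (3.22 with no filter on cells), and the portal over central ratio of Angpt2 (2.68 with 2 ranges in place of 3, 8.11 with the outer 2 of 5 ranges, 2.82 thinned) and the stellate Vegfa ratio of central to portal (1 thinned). In 20 further draws that stellate Vegfa ratio was 2.63, inside its interval of 2.21 to 5.41. With each type taken without its cell with most UMIs of the gene, added after the data were seen, the lymphatic to sinusoidal ratio of Angpt2 was 3.67 and the sinusoidal to lymphatic ratio of Nrp2 1.56. The portal over central ratio of Vegfc, whose interval is wide, was 24.3 with 2 ranges, 135 with the outer 2 of 5, 44 thinned and 23.8 in 20 further draws, and 61.3 without cells with vascular markers. Leaving out landmarks in turn gave 50.5 to 163 for Vegfc and 3.64 to 4.23 for Angpt2 in sinusoidal cells, and 3.19 to 3.88 for Vegfa in stellate-like cells. Of the 30 nearest genes 10 were the same with Spearman ranks. In the types of 25 to 29 cells a count of 0 allows from 8.94 to 45.6 CPM, so lower levels were not detectable there.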
